A study of Mus musculus with 12 samples.

Results

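Eph receptors and ephrins were measured in the colon of mice with colitis induced by dextran sulfate sodium (DSS), with and without treatment by rhynchophylline (Rhy) or dexamethasone (DXM). The members were 10 genes taken by symbol from the 54532 genes of the deposited count table. They comprised 7 receptors (Epha1, Epha2, Epha4, Epha7, Ephb2, Ephb3 and Ephb4) and 3 ephrins (Efna1, Efnb1 and Efnb2). All 10 passed the filter on low counts, which left 16904 genes to test.

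RNA from colon tissue of male C57BL/6J wild-type mice, 5 weeks old according to the labels, was sequenced in 12 libraries, 3 in each of 4 groups. The control group received no DSS, the model group received DSS, the Rhy group received Rhy with DSS, and the DXM group received DXM at 4 mg/kg with DSS. The sequenced dose of Rhy is not given in the sources used here, and no group received Rhy or DXM without DSS. No source states that each library came from a separate mouse, so the p-values measure the spread between these samples. Total counts ran from 14346478 to 17749716 per library, and a member's count in a library from 48 for Epha4 to 3205 for Efnb1. Counts were scaled for library size with TMM and are given as CPM, a scale on which 1 read was worth 0.0482 to 0.0856 CPM.

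Several libraries stood apart before any comparison was made. Model 1 and model 2 were far closer to each other than any other pair of libraries, with a common dispersion of 0.002012 against 0.06044 for the next closest of 66 pairs. A Poisson chi-square of their counts came to 2.85 per degree of freedom, above what counting error alone gives, against 53.65 to 266.5 for the other 11 pairs within a group. This does not show that they came from separate RNA samples, which the sources used here do not state, and if they did not, the model group holds 2 samples. Both were kept, and results are also given with these libraries summed into 1. The share of counts from mitochondrial genes was 21.0%, 17.0% and 6.33% in control 1, 2 and 3, 13.4%, 13.98% and 11.1% in model 1, 2 and 3, 23.8%, 15.2% and 8.90% in Rhy 1, 2 and 3, and 25.7%, 7.88% and 7.48% in DXM 1, 2 and 3. Hoxb13, a gene of the most distal gut, was at 0.165 CPM in control 3, 1.49 CPM in model 3 and 0 in Rhy 1, and between 72.0 CPM (control 2) and 316.5 CPM (Rhy 2) in the other libraries. The position of each piece along the colon is not given in the sources used here. In bulk tissue, fewer cells of a type and less RNA per cell cannot be told apart.

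Eph receptors form the largest family of receptor tyrosine kinases, and their ligands, the ephrins, are held on the surface of neighbouring cells, so that signals pass by contact and can run in both directions. A-type ephrins are attached by a lipid anchor and mostly bind EphA receptors, whereas B-type ephrins span the membrane and mostly bind EphB receptors. In the intestine, EphB2 and EphB3 are Wnt target genes of the crypt base and B-type ephrins are higher towards the surface, an arrangement that keeps epithelial cells in position. EphB4 and ephrin-B2 are also known as markers of venous and arterial endothelium.

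Levels of different genes were compared on the deposited FPKM, which correct for gene length. This length is 1 value per gene, from 1830 bases for Efna1 to 12608 bases for Ephb2, whichever transcript is expressed. The median over 12 libraries was highest for Efna1 (45.5 FPKM) and Efnb1 (29.9 FPKM), followed by Ephb4 (15.5 FPKM) and Efnb2 (15.0 FPKM). Epha1 (7.71 FPKM) and Epha2 (6.14 FPKM) lay in the middle, and Ephb3 (3.17 FPKM), Ephb2 (2.43 FPKM), Epha7 (1.34 FPKM) and Epha4 (0.718 FPKM) were lowest. The ephrins thus were among the most abundant members per length, with Ephb4 between Efnb1 and Efnb2. Neighbours in this order were not all separable: Efna1 exceeded Efnb1 in 8 of 12 libraries, Ephb4 exceeded Efnb2 in 6, and Epha1 exceeded Epha2 in 8. By contrast, Efnb1 exceeded Ephb4, Efnb2 exceeded Epha1 and Epha7 exceeded Epha4 in all 12 libraries, although the ranges over libraries overlapped for every pair of neighbours. The low place of Ephb2 rested on its length: by CPM its median (31.2) lay above those of Epha2 (28.8) and Ephb3 (21.6).

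**Figure D1:**
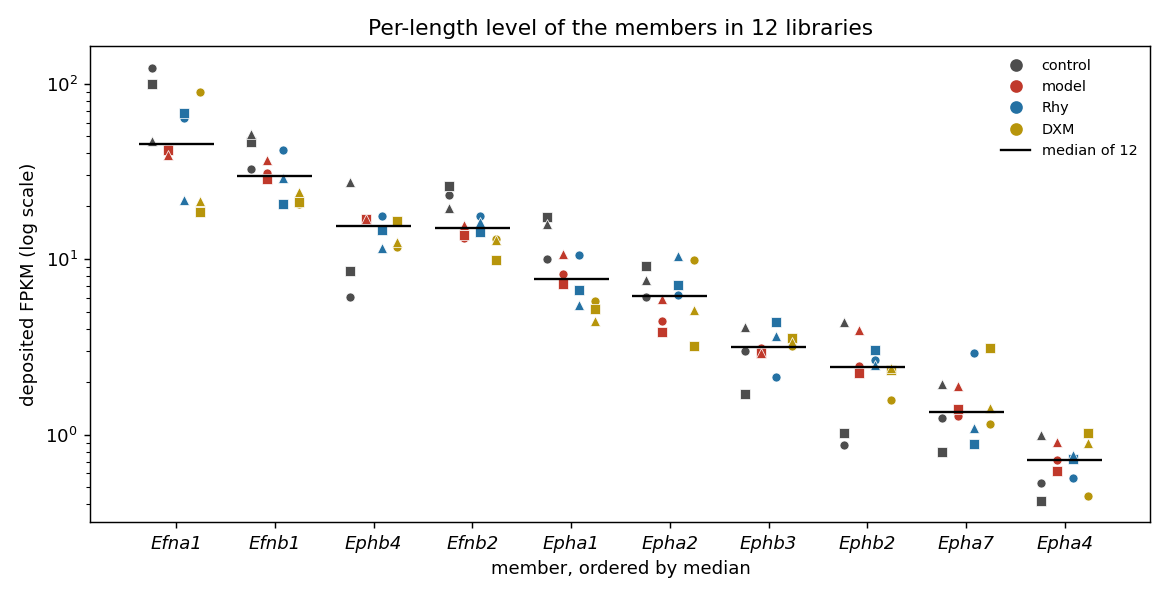
Deposited FPKM of each member on a log axis, members ordered by their median; each point is a library, coloured by group, with circles, squares and triangles for replicates 1, 2 and 3, and black lines mark the median of 12 libraries. Efna1 and Efnb1 stand at the top, with medians of 45.5 and 29.9, and Epha4 at the bottom, with a median of 0.718.

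Among the other 12 genes of the family, 8 passed the filter: Epha3, Epha5, Ephb6, Efna2, Efna3, Efna4, Efna5 and Efnb3. Efna4 (median 4.36 FPKM) and Efna3 (2.19 FPKM), which lie next to Efna1 on chromosome 3, were the most abundant of these, and Epha6, Epha8, Epha10 and Ephb1 had too few counts to test.

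Of the B-type ephrins, Efnb2 was lower in the model, Rhy and DXM groups than in the control group, and Efnb1 in the DXM group, each at an unadjusted p under 0.05. For Efnb2, the levels were 158, 175 and 132 CPM in control 1, 2 and 3, 93.0, 97.0 and 110.0 CPM in model 1, 2 and 3, 122.5, 99.1 and 113 CPM in Rhy 1, 2 and 3, and 90.8, 69.6 and 91.1 CPM in DXM 1, 2 and 3. Every control library lay above every library of the model, Rhy and DXM groups. For Efnb1, the levels were 113, 158 and 176 CPM in control 1, 2 and 3, 109.9, 102 and 129 CPM in model 1, 2 and 3, 147, 72.2 and 101 CPM in Rhy 1, 2 and 3, and 72.4, 74.2 and 85.9 CPM in DXM 1, 2 and 3. The DXM libraries of Efnb1 all lay below the control and the model libraries, whereas the model and Rhy libraries overlapped with control 1.

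Efna1, an A-type ephrin, varied more than any other member, with a 6.53-fold range over the 12 libraries. It was at 225, 180.4 and 85.5 CPM in control 1, 2 and 3, at 82.8, 79.2 and 73.6 CPM in model 1, 2 and 3, at 118, 126 and 39.9 CPM in Rhy 1, 2 and 3, and at 167, 34.5 and 40.6 CPM in DXM 1, 2 and 3. The control libraries lay above the model libraries, but control 3 exceeded model 1 by little, and the Rhy and DXM groups each held libraries above and below the model group. In the control and Rhy groups, replicate 3 had both the lowest Efna1 and the lowest mitochondrial share, and in the DXM group Efna1 and this share were both high in DXM 1 and low in DXM 2 and 3. The part of this share in the level of Efna1 was not tested.

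Epha1, a receptor known from epithelia, was lowest on average in the DXM group. It was at 39.2, 67.7 and 61.5 CPM in control 1, 2 and 3, 33.4, 29.1 and 42.9 CPM in model 1, 2 and 3, 41.8, 26.6 and 21.7 CPM in Rhy 1, 2 and 3, and 23.1, 21.0 and 18.03 CPM in DXM 1, 2 and 3. The DXM libraries lay below all control and model libraries, while control 1 fell within the range of the model and Rhy libraries. Epha2, a receptor of epithelial cells, was at 28.3, 42.4 and 35.0 CPM in control 1, 2 and 3, 21.4, 18.4 and 28.2 CPM in model 1, 2 and 3, 29.3, 33.6 and 49.1 CPM in Rhy 1, 2 and 3, and 46.9, 15.2 and 24.7 CPM in DXM 1, 2 and 3. For Epha2 the model group had the lowest mean (22.7 CPM), with its highest library just under the lowest library of the control group and of the Rhy group. The DXM group (mean 28.95 CPM) overlapped with the model group, and DXM 2 was the lowest library of the series.

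Ephb2 and Ephb4 split the control group. Ephb2 was at 10.9 and 12.7 CPM in control 1 and 2 but at 54.95 CPM in control 3, so that the control group held both the lowest and the highest levels of the series. The other groups lay in between, with 32.2, 29.2 and 50.5 CPM in model 1, 2 and 3, 33.7, 38.5 and 31.6 CPM in Rhy 1, 2 and 3, and 20.02, 30.2 and 30.9 CPM in DXM 1, 2 and 3. Ephb4 had the same layout, at 28.2, 39.0 and 126.5 CPM in control 1, 2 and 3, 81.0, 81.3 and 80.1 CPM in model 1, 2 and 3, 82.2, 68.4 and 54.3 CPM in Rhy 1, 2 and 3, and 54.9, 77.8 and 60.1 CPM in DXM 1, 2 and 3. For both receptors, control 1 and 2 lay below every library of the DSS groups and control 3 lay above them. Control 3 was also among the libraries with Hoxb13 near 0, and it had the lowest mitochondrial share of all libraries (6.33%). Of the other libraries with Hoxb13 near 0, model 3 was the highest of its group for Ephb2 but the lowest for Ephb4. Rhy 1 was the highest of its group for Ephb4 but in the middle for Ephb2. The parts of the position along the colon and of the mitochondrial share in these levels were not tested.

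Ephb3, the other crypt receptor, ranged from 11.1 CPM in control 2 to 29.3 CPM in Rhy 2, and Epha7 from 7.79 CPM in control 2 to 31.3 CPM in DXM 2. Epha4 had the lowest levels, from 3.34 CPM in control 2 to 8.39 CPM in DXM 2. For these receptors the control, model, Rhy and DXM groups overlapped, except that the DXM libraries of Ephb3 lay just above its model libraries.

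**Figure D2:**
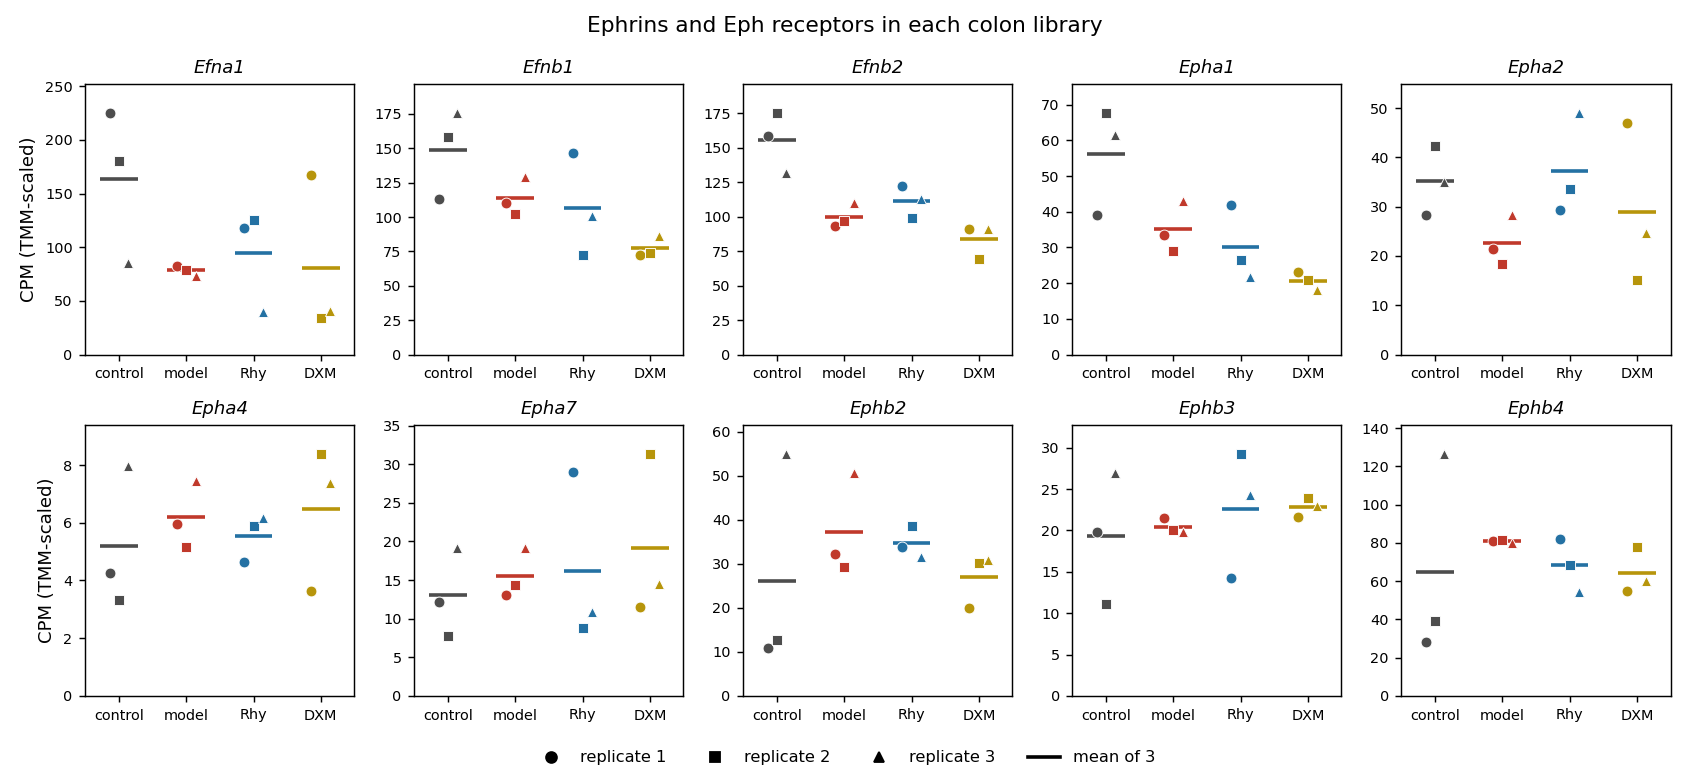
CPM of each member (vertical axes from 0) by group; circles, squares and triangles are replicates 1, 2 and 3, and lines are the means of 3 libraries. Efnb2 is lower in every DSS library than in the controls, and Ephb2 and Ephb4 are low in control 1 and 2 and high in control 3.

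The model group was compared with the control group to ask what DSS changed. Efnb2 averaged 100.01 CPM in the model group and 155 CPM in the control group (log2 fold change -0.63, SE 0.18, adjusted p = 0.459). Epha1 averaged 35.1 CPM against 56.1 CPM (log2 fold change -0.68, SE 0.27, adjusted p = 0.493). Both were lower, and no member was higher, at an unadjusted p under 0.05, so 2 of 10 members met this rule against 9.62% of all genes, or 4.51% in the lower direction. By adjusted p, 0 members and 0% of the 16904 genes passed in edgeR, whereas DESeq2 on all libraries called 46 genes and 0 members. Efnb2, Efna1 and Epha2 were the 3 members whose model libraries all lay below the control libraries, against 6.61% of all genes. With all libraries in the main fit, Efna1 (log2 fold change -1.06, SE 0.60) and Epha2 (-0.63, SE 0.36) did not meet the unadjusted rule. Efna1 met it in 4 of 16 alternative settings and Epha2 in 2, with smallest adjusted p of 0.109 and 0.364. Both did in edgeR (-1.065 and -0.64) and DESeq2 (-1.10 and -0.68) on only the groups compared, against 9.92% and 6.4% of all genes. Efna1 also did with genes of any count (-1.04, SE 0.46), against 6.72%, and without control 3. Over the members, 5 fold changes were positive and 5 negative, with a median of -0.15 against 0.0064 over all genes. With each library left out in turn, the median over the members ran from -0.30 (without control 1) to 0.048 (without control 3).

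The fold changes of the EphB receptors between the model and control groups depended on single libraries. With all libraries, the log2 fold change was 0.51 (SE 0.50, adjusted p = 0.772) for Ephb2 and 0.32 (SE 0.43, adjusted p = 0.844) for Ephb4. Without control 1, 2 or 3, it was 0.14 (SE 0.48), 0.18 (SE 0.51) or 1.64 (SE 0.29) for Ephb2 and -0.036 (SE 0.38), 0.061 (SE 0.46) or 1.24 (SE 0.24) for Ephb4, and for Ephb2 it was 0.17 without model 3. For Ephb3 it was 0.083 with all libraries and 0.099, -0.19 and 0.38 without control 1, 2 and 3. Without control 3, 4 members met the unadjusted rule, against 16.2% of all genes, and 0 the adjusted one: Ephb2 and Ephb4 higher, Efnb2 and Efna1 lower. Epha1 (log2 fold change -0.63, SE 0.31) did not meet it then. With model 1 and 2 summed into 1 library, 1 member met the unadjusted rule, namely Efnb2 (log2 fold change -0.60, SE 0.22), against 4.99% of all genes. Leaving out control 2, model 1 or model 2 also left 1 member, against 6.3%, 5.12% and 5.19%.

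Rhy with DSS was compared with DSS alone to ask what Rhy changed in colitis. By adjusted p, 0 members and 0% of all genes passed in edgeR, and DESeq2 on all libraries called 5 genes and 0 members. At an unadjusted p under 0.05 there were 0 members, against 3.72% of all genes. Epha2 had the largest fold change, from 22.7 CPM in the model group to 37.3 CPM in the Rhy group (log2 fold change 0.72, 95% interval -0.072 to 1.51, adjusted p = 1), and was the member (1 of 10) whose Rhy libraries all lay above the model libraries, against 5.51% of all genes. It met the unadjusted rule in 5 of 16 alternative settings, with adjusted p from 0.587 to 1 over the 16. These were edgeR with genes of any count (log2 fold change 0.72, SE 0.32), edgeR (0.72, SE 0.25) and DESeq2 (0.74, SE 0.30) on only the groups compared, without model 3 (0.93, SE 0.42), and without control 3, model 3 and Rhy 1 (1.08, SE 0.47), a choice made after seeing the data. The shares of all genes at the same rule were 3.24%, 5.19%, 3.74%, 5.79% and 8.42%. Epha2 missed the rule with model 1 and 2 summed (0.63, SE 0.42). Beside it, epithelial markers were positive for 10 of 11 genes (median 0.29), 4 of them with all Rhy libraries above the model libraries, against 5.51%, and 0 at an unadjusted p under 0.05. Surface colonocyte markers were positive for 8 of 9 (median 0.44, from 0.27 without Rhy 2 to 0.665 without model 3), also with 0, and fibroblast markers for 6 of 7 (median 0.77, from 0.46 without Rhy 3 to 1.095 without Rhy 1), 3 of them at that rule, against 1.74% of all genes. Of the fibroblast markers, 0 had all Rhy libraries above the model libraries. Smooth muscle markers were positive for 7 of 8 (median 0.37), 4 of them with all Rhy libraries above, and 1 at that rule. Endothelial markers were positive for 9 of 10 (median 0.33, from -0.016 without Rhy 2 to 0.62 without Rhy 1). Mitosis genes were negative for all 12 (median -0.57, from -0.86 without Rhy 3 to -0.35 without Rhy 1). Both lists had 0 at that rule. The part of these cells in the level of Epha2 was not tested. Efnb2 and Epha1, the members below control in the model group by the unadjusted rule, had log2 fold changes of 0.16 (interval -0.23 to 0.55) and -0.23 (interval -0.83 to 0.37) between the Rhy and model groups. The median over the members was -0.017 against -0.015 over all genes. With each library left out it ran from -0.085 (without model 1) to 0.18 (without model 3), and was 0.027 without Rhy 3.

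DXM with DSS was compared with DSS alone, DXM being a glucocorticoid used against inflammation. Epha1 averaged 20.7 CPM in the DXM group and 35.1 CPM in the model group (log2 fold change -0.76, SE 0.28, adjusted p = 0.622). It was the member (1 of 10) at an unadjusted p under 0.05, against 7.69% of all genes, or 2.8% in the lower direction. By adjusted p, 0 members and 0% of all genes passed in edgeR, and DESeq2 on all libraries called 51 genes and 0 members. Epha1, Ephb4, Efnb1 and Efnb2 were the 4 members with all DXM libraries below the model libraries, against 12.2% of all genes, and Ephb3 was the 1 member with all of them above, against 10.4%. For Ephb4 the model libraries spanned only 80.1 to 81.3 CPM, and the highest DXM library was at 77.8 CPM. Such a rule is easier to meet if model 1 and model 2 were not separate samples. The interval of Efnb1 included 0 (log2 fold change -0.55, 95% interval -1.11 to 0.0042). Efnb1 met the unadjusted rule in 3 of 16 alternative settings, with 0.127 as the smallest adjusted p over the 16. These were edgeR with genes of any count (-0.55, SE 0.26), and edgeR (-0.55, SE 0.16) and DESeq2 (-0.54, SE 0.20) on only the groups compared. The shares of all genes at that rule were 5.86%, 15.4% and 9.33%. For Epha1, the log2 fold change was -0.58 (SE 0.31) without model 3 and -0.67 (SE 0.32) without DXM 3, and leaving out either gave 0 members, against 5.23% and 3.11% of all genes. With model 1 and 2 summed into 1 library, Epha1 was still the 1 member at the unadjusted rule (-0.84, SE 0.31), against 4.24%. Leaving out DXM 1 gave 2 members, against 8.17%, since the log2 fold change of Efna1 moved from 0.037 to -1.06 (SE 0.48). The median over the members was -0.11 against -0.015 over all genes, and ran from -0.26 (without DXM 1) to -0.078 (without model 3).

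Both treated groups were also compared with the control group, which these comparisons share with each other and with the comparison of the model group. Between the Rhy and control groups, Epha1 (30.0 CPM against 56.1 CPM, log2 fold change -0.90, SE 0.28, adjusted p = 0.364) and Efnb2 (111.55 CPM against 155 CPM, -0.48, SE 0.18, adjusted p = 0.373) were lower, so 2 members met the unadjusted rule against 11.6% of all genes, or 5.09% in the lower direction. Efnb2 was the member (1 of 10) with all Rhy libraries below the control libraries, against 4.79% of all genes. Surface colonocyte markers were negative for all 9 (median -0.50, from -0.78 without Rhy 2 to -0.33 without control 1). Epithelial markers were so for 8 of 11 (median -0.16, from -0.24 without Rhy 1 to -0.043 without Rhy 2). Of both lists, 0 met the unadjusted rule. Smooth muscle markers were positive for all 8 (median 0.41, from 0.21 without control 3 to 0.78 without control 1). Of these, 1 met it, against 6.46% of all genes. The part of these cells was not tested. By adjusted p, 0 members and 0% of all genes passed in edgeR, and DESeq2 on all libraries called 32 genes and 0 members. Without control 3, 4 members met the unadjusted rule against 16.9% of all genes, with Ephb2 (log2 fold change 1.54, SE 0.29) and Ephb4 (1.01, SE 0.24) higher. Without control 2 or Rhy 2, 1 member did, against 8.34% and 6.87%.

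Between the DXM and control groups, Epha1, Efnb1 and Efnb2 were lower. Epha1 averaged 20.7 CPM against 56.1 CPM, a log2 fold change of -1.44 (SE 0.28, adjusted p = 0.128). Efnb2 averaged 83.8 CPM against 155 CPM (log2 fold change -0.89, SE 0.18, adjusted p = 0.128), and Efnb1 77.5 CPM against 149 CPM (-0.94, SE 0.26, adjusted p = 0.130). These 3 members met the unadjusted rule and also had all DXM libraries below the control libraries. The background was 18.9% of all genes at an unadjusted p under 0.05, 10.2% in the lower direction, and 8.89% with all DXM libraries below the controls. By adjusted p, 0 members and 0% of all genes passed in edgeR, whereas DESeq2 on all libraries called 1059 of 29929 genes and these 3 members (adjusted p = 0.00094 for Epha1, 0.000959 for Efnb2 and 0.0165 for Efnb1). DESeq2 on only the groups compared called 395 of 28107 genes and also these members (adjusted p = 0.00298 for Epha1 and 0.0444 for each of Efnb1 and Efnb2). Over 16 alternative settings, the adjusted p ran from 0.00094 to 0.502 for Epha1, from 0.000959 to 0.502 for Efnb2 and from 0.0165 to 0.502 for Efnb1, and all 3 met the unadjusted rule in each of them. Without control 3 or without DXM 1, 5 members met the unadjusted rule, against 20.2% and 20.9% of all genes: Ephb2 (log2 fold change 1.18, SE 0.29) and Ephb4 (0.91, SE 0.24) joined, both higher, without control 3, and Efna1 (-2.12, SE 0.50) and Epha2 (-0.82, SE 0.31) joined, both lower, without DXM 1. Efna1 also met the unadjusted rule with the replicate block (log2 fold change -1.155, SE 0.455), against 18.9% of all genes. With genes of any count it met the rule too (-1.015, SE 0.46), against 12.3%. The median over the members was -0.15 against 0.056 over all genes, and ran from -0.39 (without control 1) to 0.12 (without control 3).

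**Figure D3:**
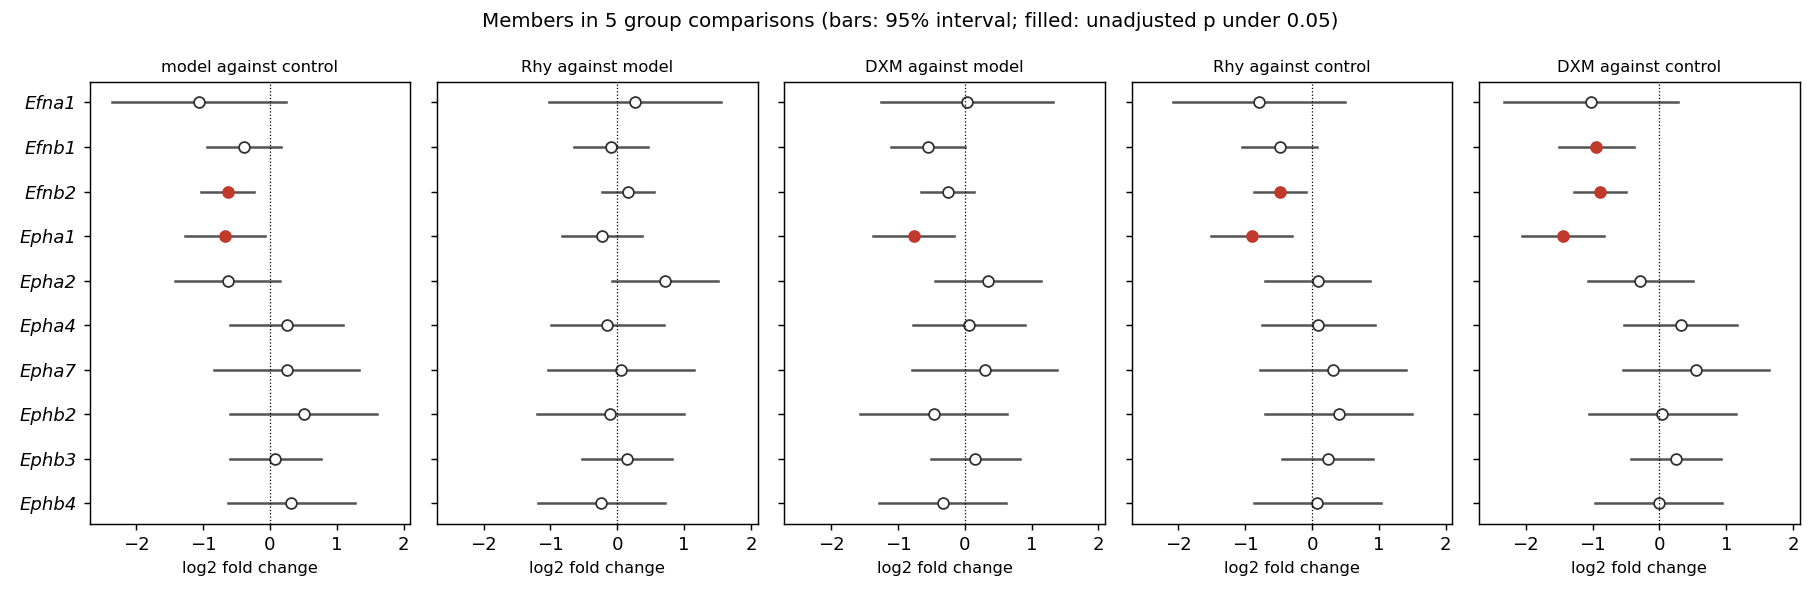
Log2 fold change of each member (horizontal axes) in the 5 comparisons; points are estimates, bars are 95% intervals, and filled points have an unadjusted p under 0.05. Epha1 and Efnb2 are filled in all 3 comparisons with the control group and lie below 0 there, and no point is filled between the Rhy and model groups.

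Members were also compared with each other over the 12 libraries by Pearson's r of log2 CPM, given as a description without a test, since the libraries share groups and differ in makeup. Of 45 pairs, 2 had an r above 0.8: Ephb2 with Ephb4 (0.903) and Epha1 with Efnb1 (0.890). The lowest was -0.804, between Epha4 and Efna1. Of receptors paired with the ligands of their own class, Epha1, Epha2, Epha4 and Epha7 had an r with Efna1 of 0.559, 0.402, -0.804 and -0.434. Ephb2, Ephb3 and Ephb4 had an r of 0.0574, -0.532 and 0.154 with Efnb1 and of -0.445, -0.566 and -0.453 with Efnb2. Control 3 had the highest level of both Ephb2 and Ephb4.

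**Figure D4:**
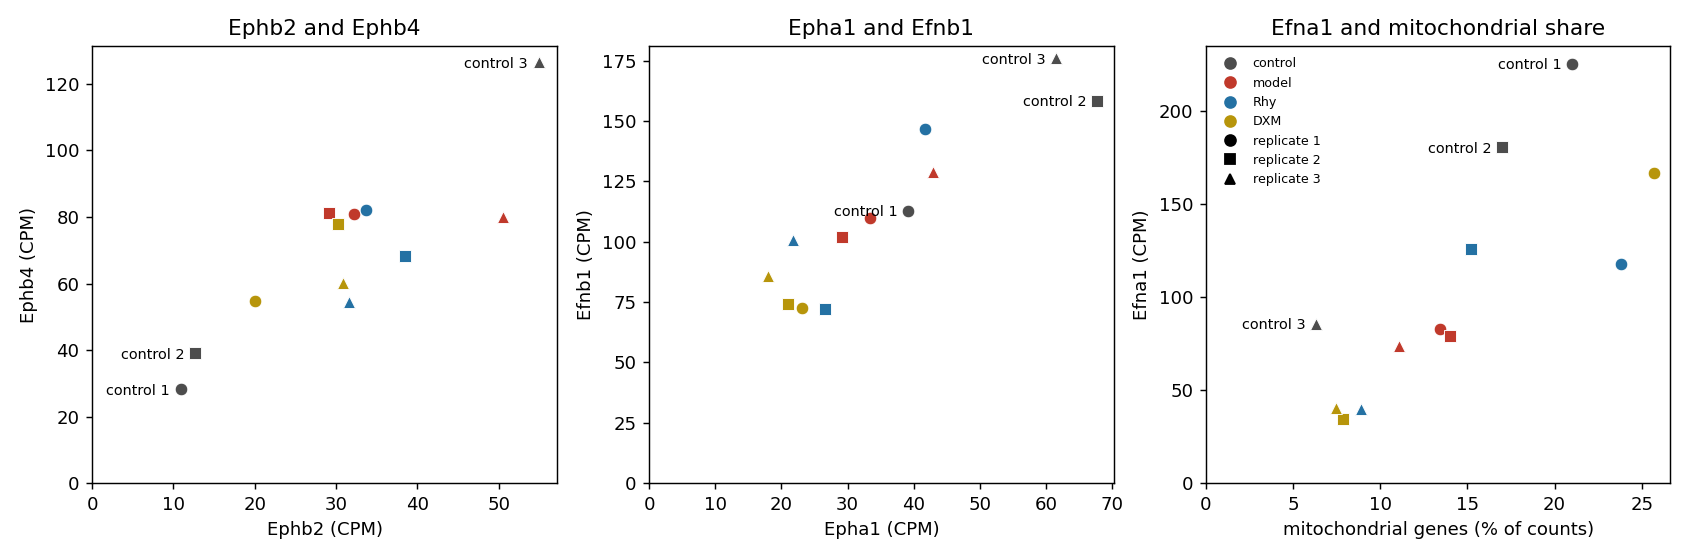
Each point is a library, coloured by group, with circles, squares and triangles for replicates 1, 2 and 3: Ephb4 against Ephb2 (CPM), Efnb1 against Epha1 (CPM), and Efna1 (CPM) against the percentage of counts from mitochondrial genes. Control 3 lies at the top right of the first panel, and control 1 and 2 at its bottom left.

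Promoters are shown for the members that moved together, Epha1, Efnb1 and Efnb2, which were lower in the DXM than in the control libraries, and Ephb2 and Ephb4, which split the control group. RefSeq windows (GRCm38.p6) matched all 10 members, and the 250 bases before the annotated start were searched on both strands for the TCF/LEF core CTTTG, the glucocorticoid receptor half-site AGAACA and the GC box GGGCGG. Beyond the start, 25 bases of the reference were looked up in the gene's transcripts and found for 11 of 12 windows but not for Efnb1, which starts further downstream in the annotation of the counts, so its window is less certain. Capitals mark the matches, which in these 5 windows are all GC boxes, read as CCGCCC on the other strand.
Epha1, chr6:42373269-42373518 (minus strand): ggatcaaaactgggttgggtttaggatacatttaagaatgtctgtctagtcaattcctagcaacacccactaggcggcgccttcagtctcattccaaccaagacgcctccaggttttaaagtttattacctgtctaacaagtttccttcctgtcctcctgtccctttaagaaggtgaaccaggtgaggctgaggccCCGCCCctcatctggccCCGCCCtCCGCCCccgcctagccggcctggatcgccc
Efnb1, chrX:99135811-99136060 (plus strand): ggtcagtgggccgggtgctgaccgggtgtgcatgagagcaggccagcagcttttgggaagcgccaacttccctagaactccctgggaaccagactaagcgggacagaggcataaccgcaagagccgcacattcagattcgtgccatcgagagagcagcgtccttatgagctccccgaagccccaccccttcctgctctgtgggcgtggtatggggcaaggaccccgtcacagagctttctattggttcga
Efnb2, chr8:8661243-8661492 (minus strand): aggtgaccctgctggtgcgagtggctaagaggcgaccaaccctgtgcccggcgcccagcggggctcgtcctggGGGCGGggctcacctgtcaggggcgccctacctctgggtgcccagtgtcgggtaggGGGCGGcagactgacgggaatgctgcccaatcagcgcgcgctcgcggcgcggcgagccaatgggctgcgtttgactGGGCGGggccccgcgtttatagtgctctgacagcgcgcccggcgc
Ephb2, chr4:136836013-136836262 (minus strand): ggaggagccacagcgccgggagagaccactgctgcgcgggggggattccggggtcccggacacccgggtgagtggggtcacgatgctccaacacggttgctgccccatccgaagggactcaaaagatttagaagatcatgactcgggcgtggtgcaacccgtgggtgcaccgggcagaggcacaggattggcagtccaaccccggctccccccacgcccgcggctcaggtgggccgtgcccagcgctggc
Ephb4, chr5:137349859-137350108 (plus strand): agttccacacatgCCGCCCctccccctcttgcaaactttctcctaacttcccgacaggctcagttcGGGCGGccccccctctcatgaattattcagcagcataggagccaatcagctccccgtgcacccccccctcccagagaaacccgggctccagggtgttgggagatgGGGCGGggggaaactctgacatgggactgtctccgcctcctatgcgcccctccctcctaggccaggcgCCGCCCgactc
Epha1 and Efnb2 held 3 GC boxes each, Ephb4 held 4, and Efnb1 and Ephb2 held 0. Over all members, 8 of 10 had a GC box in at least 1 of their windows, against 32.7% of 32851 windows of this length. Each member was counted once whichever of its windows matched, whereas the shares count every window. The windows of the members held from 9 (Epha1) to 27 (Efnb2) CpG sites (C followed by G), against a median of 6 over all windows. The GC box itself holds a CpG, and the part of CpG content in these matches was not tested. The TCF/LEF core was found for 2 members, Epha2 and Efna1, against 48.6% of windows, and the glucocorticoid receptor half-site for 0, against 16.1%. These are matches of letters only, and an absent match says nothing of the factor.

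In the annotation of the same build, the exons of 8 members overlapped no exon of another gene. Exons of Epha1 share 236 bases (6.01% of its exon bases) with Zyx and those of Ephb4 share 33 bases (0.711%) with Zan, both on the opposite strand, and whether strands were counted apart is not given in the sources used here.

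Of the other 8 family genes tested, Efna3 alone met the unadjusted rule, and only between the DXM and control groups (2.88 CPM against 10.2 CPM, log2 fold change -1.82, SE 0.69, adjusted p = 0.200), where 18.9% of all genes met it. In the model group, Efna3 was at 5.98 CPM. Epha3, Epha5, Ephb6, Efna2, Efna4, Efna5 and Efnb3 had log2 fold changes from -0.67 (Ephb6) to 0.51 (Efnb3) between the model and control groups.

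Signalling partners of Eph receptors, a list of 31 genes that were all tested and that encode adaptors, kinases, phosphatases, GTPases and their regulators, the protease Adam10 and the cadherin Cdh1, were counted in the same way. Between the model and control groups, 1 was higher and 2 were lower at an unadjusted p under 0.05, or 3 of 31 against 9.62% of all genes: Chn1, a Rac-inactivating protein downstream of EphA4, was higher (log2 fold change 0.89, SE 0.37), and Kalrn, an exchange factor (-0.65, SE 0.24), and Src, a kinase (-0.68, SE 0.26), were lower. Their adjusted p was 0.493, 0.479 and 0.488. Between the Rhy and model groups there were 0, against 3.72%, and between the DXM and model groups 1, against 7.69%, the adaptor Crkl (-0.38, SE 0.16, adjusted p = 0.637), which was lower. All model libraries lay below the control libraries for 6 partners, against 6.61% of all genes, and above them for 1, against 10.4%. In the comparison of the DXM and model groups, 26 of 31 had negative fold changes. All DXM libraries lay below the model libraries for 11 partners, against 12.2% of all genes, and above them for 1, against 10.4%. Between the DXM and control groups 9 were lower and 1 was higher, against 10.2% and 8.68% of all genes, and between the Rhy and control groups 1 was lower, against 5.09%. The list's median was -0.05, -0.017 and -0.24 in model against control, Rhy against model and DXM against model, and ran, with each library left out, from -0.089 to -0.026, from -0.045 to 0.052 and from -0.28 to -0.18. In DXM against control it was -0.38 with all libraries. With each left out, it ran there from -0.34 (without control 1) to -0.094 (without control 3).

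Crypt Wnt targets, the programme to which Ephb2 and Ephb3 belong, were tested for 11 of 12 genes. Between the model and control groups 10 had positive fold changes and 1 negative, with a median of 0.21, and 0 met the unadjusted rule, against 9.62% of all genes. The median was -0.13 without control 1, -0.036 without model 3 and 0.71 without control 3. Nkd1, a feedback inhibitor of Wnt signalling, was the gene (1 of 11, against 7.69% of all genes) at an unadjusted p under 0.05 between the DXM and model groups (29.2 CPM against 15.8 CPM, log2 fold change 0.89, SE 0.30, adjusted p = 0.622). The summed level of the 12 genes, of which Cd44 was the most abundant when all libraries were summed, was 132, 167 and 294 CPM in control 1, 2 and 3, 218, 209 and 240 CPM in model 1, 2 and 3, 199, 315 and 298 CPM in Rhy 1, 2 and 3, and 199, 234 and 288 CPM in DXM 1, 2 and 3. Control 1 and 2 were lowest here, as for Ephb2 and Ephb4. The part of this programme in the levels of the EphB receptors was not tested.

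Markers of the tissue showed colon epithelium in every library. The 11 epithelial markers, led by Krt8, summed to 31990, 27070 and 21250 CPM in control 1, 2 and 3, 20280, 19990 and 23360 CPM in model 1, 2 and 3, 25210, 27330 and 27820 CPM in Rhy 1, 2 and 3, and 23000, 19000 and 18870 CPM in DXM 1, 2 and 3, with 0 genes at 0. Beside Epha1, Efnb1 and Efnb2, all 11 had negative fold changes between the DXM and control groups, 6 of them at an unadjusted p under 0.05, with a median of -0.66, and all 11 between the model and control groups, 2 at that rule, with a median of -0.34. Over all genes, 10.2% and 4.51% were lower by that rule in these comparisons. Cdh1 of this list is also among the signalling partners, and Krt20 among the surface colonocyte markers. The 9 surface colonocyte markers, of which Car1 was the most abundant when all libraries were summed but not in each of them, had negative fold changes as well, 5 of 9 at an unadjusted p under 0.05 in each of these comparisons, with medians of -1.29 and -0.98; without control 1 the first was -0.72. Their sums were 19920, 32590 and 16370 CPM in control 1, 2 and 3, 11270, 11370 and 18320 CPM in model 1, 2 and 3, 21850, 13110 and 13900 CPM in Rhy 1, 2 and 3, and 19620, 7079 and 6235 CPM in DXM 1, 2 and 3. The part of these cells in the lower Epha1, Efnb1 and Efnb2 was not tested.

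The 10 endothelial markers, led by Pecam1 when all libraries were summed, bear on Ephb4 and Efnb2. They summed to 106, 86.7 and 115 CPM in control 1, 2 and 3, 83.2, 76.1 and 88.3 CPM in model 1, 2 and 3, 58.9, 163 and 99.2 CPM in Rhy 1, 2 and 3, and 207, 91.4 and 175 CPM in DXM 1, 2 and 3. Between the model and control groups 9 of 10 had negative fold changes, with a median of -0.24 (from -0.45 without control 2 to -0.10 without control 1), and 0 met the unadjusted rule, while Efnb2 was lower by it. The part of these cells in the level of Efnb2 was not tested. Between the DXM and model groups all 10 had positive fold changes, 4 of them at an unadjusted p under 0.05, against 4.89% of all genes, with a median of 0.86, whereas Ephb4 (log2 fold change -0.33) and Efnb2 (-0.25) were negative and did not pass. Between the DXM and control groups all 10 were also positive, 2 of them at that rule, against 8.68% of all genes, while Efnb2 was lower. Their median there was 0.62 (from 0.33 without DXM 1 to 0.93 without DXM 2). Mitosis genes, led by Mki67, had positive fold changes for all 12 between the model and control groups, 4 at an unadjusted p under 0.05, against 5.11% of all genes, with a median of 0.89. Their sums were 315, 195 and 356 CPM in control 1, 2 and 3, 489.9, 509.8 and 376 CPM in model 1, 2 and 3, 184, 311 and 423 CPM in Rhy 1, 2 and 3, and 187, 529.9 and 266 CPM in DXM 1, 2 and 3.

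Other cells of the colon wall also varied between libraries. Smooth muscle markers summed to between 3260 CPM (control 3) and 9180 CPM (DXM 3), fibroblast markers to between 389 CPM (Rhy 1) and 1911 CPM (DXM 3), enteric neuron and glia markers to between 57.8 CPM (Rhy 3) and 216 CPM (DXM 1), and immune markers to between 54.7 CPM (Rhy 1) and 605 CPM (DXM 3). Posterior Hox genes summed to between 32.8 CPM (control 3) and 486 CPM (DXM 3), fat markers to between 9.04 CPM (model 2) and 200.3 CPM (model 3), and the pancreatic acinar list came down to Cela1, from 51.76 CPM (control 3) to 287.7 CPM (DXM 3), with 5 to 8 of its 9 genes at 0 in each library. Between the DXM and control groups, smooth muscle markers were higher for 5 of 8 genes at an unadjusted p under 0.05. Fibroblast markers were higher by that rule for 3 of 7 and immune markers for 0 of 9, against 8.68% of all genes. The median was 0.72 for smooth muscle (from 0.51 without control 3 to 1.101 without control 1). It was 0.76 for fibroblasts (from 0.39 without DXM 3 to 0.99 without DXM 2). Between the DXM and model groups, fibroblast markers were higher for 6 of 7 genes, smooth muscle markers for 4 of 8 and immune markers for 1 of 9 at an unadjusted p under 0.05, against 4.89% of all genes. For Epha1, in contrast, the fold change in this comparison was negative. Epithelial markers were negative there for 9 of 11 genes, 1 of them at that rule, against 2.8% of all genes. Their median was -0.225 (from -0.40 without DXM 1 to -0.11 without DXM 3). Surface colonocyte markers were negative for 5 of 9, with 1 higher at that rule. Their median was -0.23 (from -0.32 without DXM 1 to 0.023 without model 3). The part of these cells in the levels of the members was not tested.

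For each member except Efnb1, whose list is left out, the 3 genes most like it were those with the highest Pearson's r of log2 CPM over the 12 libraries, given as a description. These r ran from 0.852 to 0.975. Epha1 was most like Tmem94 (0.974), Ptpn9 (0.970) and Polr2a (0.965), and Epha2 like Ggt1 (0.928), Rnf152 (0.861) and Apob (0.859). Epha4 was most like Rab3d (0.955), Ceacam10 (0.943) and Lman1 (0.942), and Epha7 like Colec10 (0.900), 1110019D14Rik (0.857) and Rgs5 (0.852). Ephb2 and Ephb4 shared their closest gene, the amino acid transporter Slc1a4 (0.962 and 0.954), followed by Pla2g12a (0.958) and Thap12 (0.956) for Ephb2 and by Zc3h7b (0.948) and Slc20a2 (0.942) for Ephb4. Ephb3 was most like Muc20 (0.954), Chst4 (0.906) and Enc1 (0.904). Among the ephrins, Efna1 was most like Ube2r2 (0.975), Ehmt2 (0.953) and Ankrd9 (0.946), and Efnb2 like Adipor2 (0.941), Mical2 (0.939) and Arhgap18 (0.935).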

How the data were processed

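Colon RNA was sequenced in 12 libraries for the study. According to the submitters' processing notes, reads were aligned to mm10 with HISAT2 2.0.5 and counted with featureCounts 1.5.0-p3, and DESeq2 1.16.1 was used; the deposited values are raw counts per gene and FPKM. The FPKM were recovered from the counts, gene length and DESeq2 size factors for 100% of 262985 values above 0, within 0.1%. Counts were tested with edgeR 4.0.16 in R 4.3.3 (filterByExpr with a count minimum of 10, TMM scaling, quasi-likelihood tests, two-sided), with all 12 libraries in 1 fit and p-values adjusted by Benjamini-Hochberg over 16904 genes. Calls were made at 0.05, both adjusted and unadjusted. DESeq2 1.42.0, other scalings and filters, a replicate block and left-out libraries served as alternatives.

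Named were all members, the other family genes tested, signalling partners and crypt Wnt targets with an unadjusted p under 0.05 in model against control, Rhy against model or DXM against model, and the 3 genes most like each member except Efnb1 (log2 CPM, prior count 2). The members and lists were chosen with earlier results of these data known.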

Additional observations from a re-analysis of the deposited data

How the results depend on the processing

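The number of members at an unadjusted p under 0.05 was 2 for model against control, 0 for Rhy against model, 1 for DXM against model, 2 for Rhy against control and 3 for DXM against control. Percentages in brackets are shares of all genes at the same rule. With the replicate block, the numbers in the labels as a term, it was 2, 0, 1, 2 and 4 in that order (10.8%, 3.7%, 7.36%, 12.4% and 18.9%). RLE scaling (9.74%, 3.69%, 7.63%, 11.7% and 18.7%) and upper-quartile scaling (9.83%, 3.54%, 8%, 11.9% and 19.8%) gave the counts without the block. So did protein-coding genes only (10.5%, 3.56%, 8.15%, 12.1% and 20.8%) and DESeq2 on all libraries (6.62%, 3.06%, 5.54%, 7.9% and 12.2%). Between libraries with the same number, the median r of deviations across genes was -0.03 (18 pairs, from -0.31 to 0.363), against 0.035 over 36 pairs with other numbers. Other settings moved it. With only the groups compared in the fit, it was 4 for model against control (9.92%), 1 for Rhy against model (5.19%), 2 for DXM against model (15.4%) and 1 for Rhy against control (6.36%), and DESeq2 on only the groups compared gave the same counts (4, 1, 2, 1, against 6.4%, 3.74%, 9.33% and 4.32%). With genes of any count kept, it was 3, 1, 2, 1 and 4 in the order above (6.72%, 3.24%, 5.86%, 7.87% and 12.3%). With model 1 and model 2 as 1 library, it was 1 for model against control (4.99%). Without control 3, model 3 and Rhy 1, the libraries lowest in Hoxb13 and chosen after seeing the data, it was 4 for model against control (15.6%), 1 for Rhy against model (8.42%), 6 for Rhy against control (21.5%) and 5 for DXM against control (23.6%); the model group then held its near-identical libraries alone. Leaving out each library in turn gave 1 to 4 for model against control (5.12% to 16.2%). It gave 0 to 1 for Rhy against model (1.67% to 6.13%) and 0 to 2 for DXM against model (3.11% to 9.2%). For Rhy against control it gave 1 to 4 (6.87% to 16.9%), and for DXM against control 3 to 5 (9.48% to 23.5%). The cause was not tested.

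Members at an unadjusted p under 0.05 in the report kept their sign in all 16 settings run for each, but missed that threshold in 5 for Epha1 in model against control, 5 for Efnb2 in Rhy against control and 2 for Epha1 in DXM against model. Other log2 fold changes turned their sign: without control 3, model 3 and Rhy 1, 0.14 for Epha4, -0.45 for Epha7 and 0.22 for Ephb2 in Rhy against model, -0.033 for Epha7 in Rhy against control and 0.91 for Ephb4 in DXM against control; with model 1 and model 2 as 1 library, -0.020 for Epha7 in Rhy against model and -0.0036 for Epha4 in DXM against model; with the replicate block, -0.27 for Efna1 in DXM against model and 0.12 for Ephb4 in DXM against control; with DESeq2 on all libraries, -0.0014 for Ephb2 in DXM against control; with only the groups compared, -0.016 for Ephb2 in DXM against control; with DESeq2 on only the groups compared, -0.011 for Ephb2 in DXM against control; with upper-quartile scaling, 0.11 for Ephb4 in DXM against control; with protein-coding genes only, 0.0046 for Ephb4 in DXM against control. The cause was not tested. Leaving out each library in turn also took some members across 0: in model against control, Epha7 -0.014 to 0.61, Ephb3 -0.19 to 0.38 and Ephb4 -0.036 to 1.24; in Rhy against model, Epha4 -0.27 to 0.031, Epha7 -0.66 to 0.36, Ephb2 -0.26 to 0.20, Ephb3 -0.079 to 0.39 and Efnb1 -0.39 to 0.12; in DXM against model, Epha2 -0.18 to 0.65, Epha4 -0.16 to 0.35, Epha7 -0.26 to 0.56 and Efna1 -1.06 to 0.40; in Rhy against control, Epha2 -0.16 to 0.24, Epha4 -0.14 to 0.54, Epha7 -0.41 to 0.69, Ephb3 -0.043 to 0.55 and Ephb4 -0.28 to 1.01; in DXM against control, Epha2 -0.82 to 0.022, Epha7 -0.0082 to 0.92, Ephb2 -0.32 to 1.18, Ephb3 -0.032 to 0.55 and Ephb4 -0.37 to 0.91.

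Epha4 had the lowest counts of the members, 48 in control 2, so depth limits it most. Groups of 3 and a call by unadjusted p limit every statement on members. By adjusted p, edgeR with all libraries and the count filter called 0 genes in each comparison, 1, 0, 0, 1 and 13 with genes of any count and 1, 0, 2, 0 and 0 with only the groups compared, in the order above. DESeq2 on only the groups compared called 167, 44, 590, 2 and 395, with 3 members among the last. On the TMM scale, 39 of 40 group means of FPKM moved by less than 1 SD, the exception being Ephb4 in the model group (16.92 to 17.42, SD 0.0423).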
